A study of Ovis aries with 15 samples.

Results

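The genes described here are HBB, which encodes the beta chain of hemoglobin, and the pair of genes that encode 5-aminolevulinate synthase, the erythroid form ALAS2 and the housekeeping form ALAS1. They are 3 of the 9155 genes named on the array and were followed through each probe set whose only annotated symbol was one of these 3 names. This gave 6 of the 24016 probe sets left after control probe sets had been removed, 4 for HBB and 1 each for ALAS2 and ALAS1, and 5 of the 6 reached a signal of 50 on at least 3 arrays. The 3 genes were chosen by their signals over the 5 stages of this series, which had been seen before, so their levels are given as a description and without a test.

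Hemoglobin is a tetramer of alpha-like and beta-like globin chains, each holding a heme group, and it makes up most of the protein of red cells. Sheep replace their fetal beta-like chain with the adult one around birth, and in ruminants the fetal chain is encoded by a close copy of the adult beta-globin gene. Heme is built from glycine and succinyl-CoA, and 5-aminolevulinate synthase, a mitochondrial enzyme, catalyses the first and rate-limiting step. ALAS2, on the X chromosome, serves the large demand of developing red cells, while ALAS1 works in all tissues and supplies heme for cytochromes, other mitochondrial proteins and, in muscle, myoglobin. A muscle sample contains fibres, vessels and blood, and immature red cells still carry globin mRNA.

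The RNA came from the longissimus dorsi, a muscle of the back, of Dorset/Suffolk/Rambouillet cross-bred sheep. There were 3 fetal stages, 80 d, 100 d and 120 d of gestation, and 2 postnatal stages, 150 d (lambs 1 to 3 days old) and 230 d (lambs of 12 weeks), with 3 animals per stage, other animals at each stage and 1 array per animal. No stage was treated. According to the methods of the study the animals were males apart from 1 female at 100 d and 1 at 120 d, and the labels do not tell which arrays these were. Sheep RNA was hybridised to a bovine array, so that a dim probe set may also reflect a sequence difference between the species, and differences were taken within a probe set.

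Signals were deposited as MAS5 values on a linear scale with arrays scaled to a mean of 200. Array medians lay between 51.4 and 69.4, and 50.7 to 58.1% of probe sets reached 50. No arrays held identical values. The 3' to 5' ratio of the actin control probe sets, a sign of RNA length, was 1.89 ± 0.29 (SD, n = 3) at 80 d, 1.53 ± 0.24 (SD, n = 3) at 100 d, 1.03 ± 0.10 (SD, n = 3) at 120 d, 0.910 ± 0.052 (SD, n = 3) at 150 d and 0.996 ± 0.054 (SD, n = 3) at 230 d. The skeletal muscle label was borne out by most of its markers, as ACTA1, the actin of the sarcomere, read between 16191 and 48692 on the 15 arrays. Of the 12 muscle markers on the array, 1 lay under 50 on all 3 arrays at each fetal stage. This was CACNA1S, a calcium channel subunit, which lay between 3.2 and 64.5 on the 15 arrays.

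Of the 4 HBB probe sets, 2 were bright in all fetal samples and dim after birth, 1 stayed at a moderate signal until 150 d, and 1 never reached 50. They are given apart because they disagree, and are named by the last part of their identifiers (A1_x_at, A1_a_at, S1_at and A1_at). The first bright one, A1_x_at, read 23753, 14317 and 18385 at 80 d, 10767, 11523 and 13699 at 100 d and 12778, 12623 and 12244 at 120 d. After birth it read 348, 209.3 and 190 at 150 d and 15.7, 84.8 and 67.5 at 230 d. All 9 fetal arrays were thus far above all 6 postnatal arrays, and the 3 arrays at 80 d were above the 6 at 100 d and 120 d, which overlapped with each other. From 120 d to 150 d, the interval across birth, its geometric mean went from 12546 to 240, a log2 difference of -5.71 and a 52.3-fold lower signal. From 150 d to 230 d it was lower again without overlap of the arrays, by a log2 difference of -2.42, which was -1.67 without 230 d replicate 1, the array under the signal minimum of 50. With that array set to 50 the signal was 3.64-fold lower.

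The other bright HBB probe set, A1_a_at, read 22225, 13689 and 18052 at 80 d, 9499, 10514 and 12210 at 100 d and 10713, 9734 and 10920 at 120 d. At 150 d it read 24.8, 79 and 9.1, and at 230 d it read 2.9, 21.7 and 7.4. Only 1 of the 6 postnatal arrays, 150 d replicate 2, was above 50, and the arrays at 150 d and 230 d overlapped. The log2 difference between 120 d and 150 d was -8.64, and with arrays under 50 set to 50 the signal was at least 179-fold lower at 150 d. Between 80 d and 100 d the log2 difference was -0.72 here and -0.63 for A1_x_at, an interval in which the mean actin ratio also went from 1.89 to 1.53, and the part of the latter in the result was not tested.

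The HBB probe set S1_at had another course. Its signals were 294.8, 192.6 and 217.8 at 80 d, 247.2, 240.5 and 215.9 at 100 d, 431.4, 351.6 and 337.9 at 120 d, 591.2, 201.7 and 347.3 at 150 d and 7, 67.3 and 62.4 at 230 d. The arrays at 120 d were all above those at 100 d, with a log2 difference of 0.67, and those at 150 d, from 201.7 to 591.2, overlapped with each fetal stage. The log2 difference between 120 d and 150 d was -0.10, with an SD of 0.78 among the arrays at 150 d. The signal first became low at 230 d, with a log2 difference of -3.49 from 150 d, which was -2.42 without 230 d replicate 1. With that array set to 50 the signal was 5.82-fold lower. The last HBB probe set, A1_at, lay between 1.1 and 37.4 on the 15 arrays and gives no level.

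The decline between 120 d and 150 d was therefore seen in 2 HBB probe sets and not in S1_at, whose decline came an interval later. In the naming of this array _x_at marks a probe set with probes shared with other sequences and _a_at one that matches several transcripts of a gene. The names HBB and HBG, the latter for gamma-globin, were not cleanly divided either. The source sequence of HBB A1_a_at also gave a probe set annotated HBG, and so did that of HBB A1_at. In the current sheep annotation (RefSeq, ARS-UI_Ramb_v3.0), HBB lies beside HBE1, the embryonic beta-like chain, and LOC100134870, with the synonym HBBC, with further genes between them that have no name. Which of these beta-like transcripts bound to each probe set cannot be told apart with these values. HBB therefore stands below for the annotation of the probe set. Of the HBB probe sets, only S1_at has a RefSeq mRNA as its source. The paper's gene clusters list HBB as unchanged until 150 d and lower afterwards. This is nearer to S1_at than to the bright probe sets. The same clusters list HBG as lower from 120 d to 150 d and again afterwards. They name genes and not probe sets. The drops of A1_x_at and A1_a_at across birth are thus not given as drops of HBB itself.

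**Figure D1:**
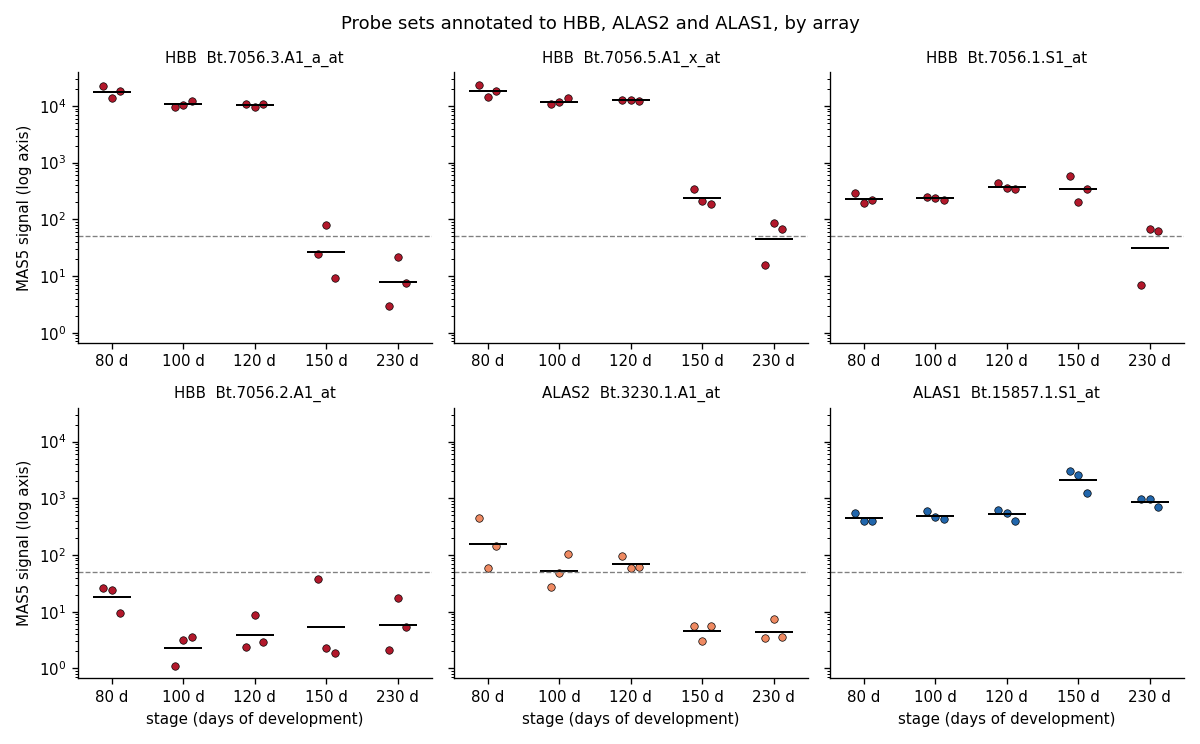
MAS5 signal (log axis) of the 6 probe sets of HBB, ALAS2 and ALAS1 on each of the 15 arrays, by stage in days of development (stages evenly spaced); points are arrays, bars are the geometric means of the 3 arrays of a stage and the dashed line is a signal of 50. Panel titles give the full identifiers. The bright HBB probe sets (A1_x_at and A1_a_at) and ALAS2 drop from 120 d to 150 d, HBB S1_at drops from 150 d to 230 d, HBB A1_at lies under 50 throughout, and ALAS1 peaks at 150 d.

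ALAS2, the erythroid synthase, was measurable in fetal muscle only. Its probe set read 451.2, 59.2 and 141.5 at 80 d, 27.5, 47.9 and 103.9 at 100 d, 95.7, 58 and 60.8 at 120 d, 5.6, 3 and 5.6 at 150 d and 3.4, 7.3 and 3.5 at 230 d. It reached 50 on 7 of the 9 fetal arrays and on 0 of the 6 postnatal ones, which had signals of 7.3 at most. The 3 fetal stages overlapped, and 80 d replicate 1 stood out with the highest value. Between 120 d and 150 d the log2 difference was -3.94, but since the later signal was under 50 and the earlier close to it, only a decrease of at least 1.39-fold is bounded. No fold is given between 150 d and 230 d, where both were under 50.

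ALAS1, the housekeeping synthase, moved the other way in the same interval. Its probe set read 555.7, 398.7 and 396.3 at 80 d, 603.9, 468.1 and 432.7 at 100 d and 624.8, 560.5 and 397.2 at 120 d. It then read 3041, 2544 and 1230 at 150 d and 992, 960.3 and 697.4 at 230 d. The 9 fetal arrays overlapped and lay under all 6 postnatal arrays, and the arrays at 150 d were all above those at 230 d. The log2 difference was 2.03 between 120 d and 150 d (4.09-fold higher) and -1.28 between 150 d and 230 d (2.43-fold lower), which left the signal at 230 d 1.68-fold above that at 120 d. The spread was widest at 150 d, with an SD of 0.69 on the log2 scale, and the array numbered 1 was highest at each of the 5 stages, as were 2.11% of the kept probe sets.

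The order of the stages by geometric mean was therefore 80 d, 120 d, 100 d, 150 d and 230 d for HBB A1_x_at, 80 d, 100 d, 120 d, 150 d and 230 d for HBB A1_a_at, 80 d, 120 d, 100 d, 150 d and 230 d for ALAS2 and 150 d, 230 d, 120 d, 100 d and 80 d for ALAS1. For HBB S1_at it was 120 d, 150 d, 100 d, 80 d and 230 d. Neighbours in these orders overlapped at 100 d and 120 d for both bright HBB probe sets and at all fetal stages for ALAS2 and ALAS1. They also overlapped at 150 d and 230 d for ALAS2 and HBB A1_a_at, and at all stages but 230 d for HBB S1_at.

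Of the 5 kept probe sets, 3 were lower on all arrays at 150 d than on all at 120 d, against 22.9% of all kept probe sets, and 1 was higher, against 14.3%. From 80 d to 100 d 2 were lower without overlap (8.96% of all kept probe sets were lower and 10.1% higher). From 100 d to 120 d 1 was higher (6.88% higher and 9.09% lower of all), and from 150 d to 230 d 3 were lower (9.93% lower and 14.0% higher of all). These counts follow from how the genes were chosen and are given as a description. In whole muscle, fewer red cells and less of a transcript per cell cannot be told apart.

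The other globins were compared next, by limma over all kept probe sets with the Benjamini-Hochberg adjustment at 0.01. Of 15 globin and hemoglobin assembly genes listed, 5 were on the array and tested. HBG was lower at 150 d than at 120 d, and HBA (alpha-globin), HBE1, HBM (the mu chain) and AHSP, the chaperone of free alpha-globin, did not pass in any interval. For comparison, 6.53% of the 7553 named genes tested were lower at 150 d.

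HBG was represented by the probe set that shares its source with HBB A1_at. It read 1602, 1101 and 1207 at 80 d, 1304, 966.8 and 1370 at 100 d, 1217, 1286 and 998.4 at 120 d, 684.5, 263.8 and 248.6 at 150 d and 103.5, 109.2 and 249.1 at 230 d. All fetal arrays lay above all postnatal ones. Across birth it fell by 1.71 on the log2 scale (standard error 0.40, limma adjusted p = 0.0094). This call was lost in 13 of the 15 fits without 1 array, with adjusted p between 0.0017 and 0.040, and it held without 150 d replicate 1 and without 230 d replicate 3. It was also lost under both other scalings, without the filter on low signals and with the replicate number as a block. The other HBG probe sets, the one that shares its source with HBB A1_a_at and another with a source of its own, gave log2 differences of -3.15 (adjusted p = 0.043) and -0.92 (adjusted p = 0.36), which did not pass. From 150 d to 230 d they did not pass either (adjusted p = 0.030 and 0.021). At 230 d only 1 of the 3 arrays reached 50 in each, and with the other arrays set to 50 their signals were 3.25-fold and 4.31-fold lower than at 150 d. Because source sequences are shared between the HBB and HBG probe sets, their values do not stand as separate evidence.

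The single HBA probe set did not show the course of the bright HBB probe sets, but it was dim at every stage. On the fetal arrays, where HBB A1_a_at read at least 9499, it read 128 at most. A decline of alpha-globin RNA could therefore hardly show in it, and the level of that RNA across birth is not known from these values. HBA lay between 46.4 and 128 on the fetal arrays and between 57.1 and 176.5 on the postnatal arrays, and its log2 difference across birth was -0.01 (standard error 0.45, adjusted p = 0.99). HBE1 lay between 29.1 and 136.4, HBM between 5.7 and 162.8 and AHSP between 5.6 and 83.4. Over the 5 genes the median log2 difference across birth was -0.27, against -0.08 over all named genes.

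**Figure D2:**
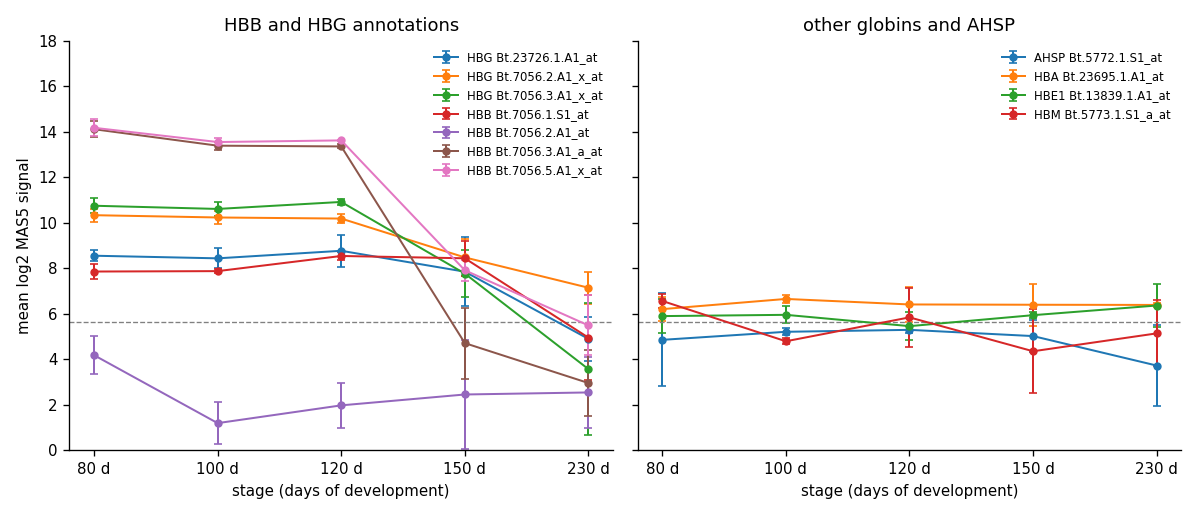
Mean log2 MAS5 signal by stage (stages evenly spaced) of the HBB and HBG probe sets (left) and of the other globins and AHSP (right); points are means of 3 arrays, error bars are SDs and the dashed line is a signal of 50. The 2 HBB probe sets at the top fall furthest between 120 d and 150 d. The probe sets of HBA, HBE1, HBM and AHSP stay dim at every stage, with 176.5 as their highest signal on a single array.

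The steps of heme synthesis after ALAS were examined as a list of 13 genes, of which 8 were on the array and 7 were tested. Between 120 d and 150 d, 2 of the 7 were higher, 0 were lower and 5 did not pass, while 6.73% of all named genes tested were higher. ALAD, which joins 2 molecules of aminolevulinate to porphobilinogen in the step that follows ALAS, had a signal of 285 ± 64.6 (SD, n = 3) at 120 d and rose to 792 ± 209 (SD, n = 3), by 1.46 on the log2 scale (standard error 0.25, adjusted p = 0.0014), and the call held in all 15 fits without 1 array. At 230 d ALAD read 1020 ± 185 (SD, n = 3), and unlike ALAS1 its mean was not below that at 150 d.

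UROD, the decarboxylase of uroporphyrinogen, had a signal of 399 ± 18.4 (SD, n = 3) at 120 d and rose to 758 ± 171 (SD, n = 3), by 0.90 on the log2 scale (adjusted p = 0.0043). This call was lost without any of the 3 arrays at 120 d and without 150 d replicate 1 or 2, with an adjusted p of up to 0.017, and without the filter on low signals. ABCB6, a porphyrin transporter, read 78.9 ± 26.7 (SD, n = 3) at 120 d and 278 ± 152 (SD, n = 3) at 150 d and did not pass (log2 fold change 1.72, adjusted p = 0.017). CPOX and PPOX, which oxidise the porphyrin ring precursors, gave 0.50 and -0.32. SLC25A38, the mitochondrial glycine carrier, gave -0.16. FECH, which inserts iron into the ring, read 75.9, 42.1 and 58 at 120 d and 79.6, 59.1 and 7 at 150 d, and its log2 difference of -0.83 turned to 0.27 without 150 d replicate 3. None of these 4 passed. UROS, which closes the ring, was not tested because it reached 50 on too few arrays.

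**Figure D3:**
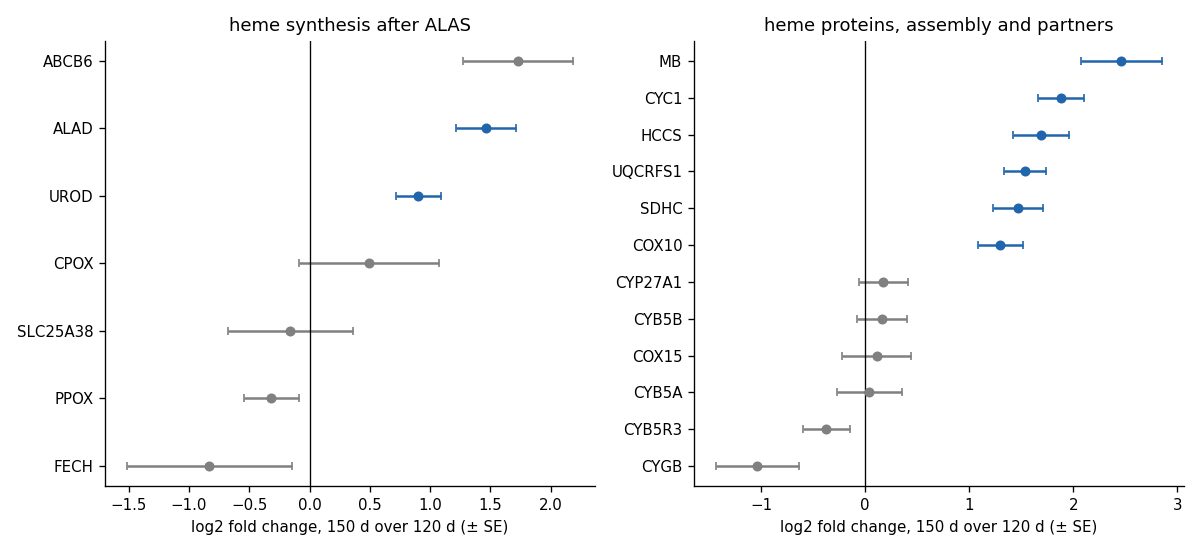
Log2 fold change of 150 d over 120 d by limma with its standard error, for the tested genes of heme synthesis after ALAS (left) and for heme proteins of muscle and mitochondria with their assembly enzymes and partners (right). Genes that passed at an adjusted p of 0.01 are blue and the others grey; ALAD and UROD on the left and MB, CYC1, HCCS, UQCRFS1, SDHC and COX10 on the right are blue, all above 0.

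Of 12 tested genes from a list of heme proteins of muscle and mitochondria, enzymes that fit them with heme and partner proteins, 6 were higher at 150 d than at 120 d, 0 were lower and 6 did not pass, against 6.73% higher and 6.53% lower of all named genes. MB, the oxygen store myoglobin, had 1212 ± 320 (SD, n = 3) at 120 d and rose to 7506 ± 4475 (SD, n = 3), by 2.46 on the log2 scale (standard error 0.39, adjusted p = 0.00093). CYC1 (1.88), the cytochrome c1 of respiratory complex III, and SDHC (1.47), a heme-binding anchor of complex II, also rose. The other 3 that rose are a partner subunit and 2 assembly enzymes: UQCRFS1 (1.54) is the iron-sulfur subunit of complex III, HCCS (1.69) attaches heme to cytochrome c, and COX10 (1.30) makes heme o for cytochrome oxidase. Their adjusted p lay between 0.00016 and 0.0013, and none of the 6 calls was lost in the 15 fits without 1 array. CYB5R3, the reductase of cytochrome b5, gave -0.37 and CYB5B, a cytochrome b5 of the outer mitochondrial membrane, gave 0.16, neither passing. CYGB, the heme protein cytoglobin, was dimmer after birth, with 193.7 to 327.5 on the fetal and 52.2 to 202.5 on the postnatal arrays, and did not pass. At an unadjusted p under 0.05 by limma, 6 of the 12 were higher and 1 lower, and 6 were called by the moderated F-statistic. The median log2 fold change of the 12 genes was 0.74, against -0.08 over all named genes.

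Of 18 erythroid transcription factors and genes of erythropoietin signalling, 10 were on the array and 5 were tested. Between 120 d and 150 d 1 of the 5 fell, 0 rose and 4 did not pass, against 6.53% lower of all named genes, with 2 lower and 0 higher at an unadjusted p under 0.05 and 2 called by the moderated F-statistic. Their median log2 difference was -0.26, against -0.08 over all named genes. EPO and its receptor EPOR were among those not tested, with highest signals of 9.0 and 52.3. LMO2, a bridging factor of erythroid transcription complexes that endothelial cells also use, fell, with 403 ± 50.9 (SD, n = 3) at 120 d and 85.4 ± 17.7 (SD, n = 3) one stage later (log2 difference -2.25, adjusted p = 0.0036). That call was lost without 120 d replicate 1 or 3 or without 150 d replicate 2, with an adjusted p of up to 0.017, whereas the second LMO2 probe set (-2.05, adjusted p = 0.0017) passed in all 15 fits without 1 array. KIT, the receptor of stem cell factor, gave -0.72 (adjusted p = 0.10), and NFE2 lay at a mean signal of 31.8 at 120 d and 36.4 at 150 d.

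Of 34 genes of the red cell membrane and red cell enzymes, 18 were on the array, and 0 of the 14 tested passed by limma between 120 d and 150 d, with 4 at an unadjusted p under 0.05 (3 higher and 1 lower) and 2 by the moderated F-statistic. PRDX2, a peroxidase, had 2892 ± 296 (SD, n = 3) at 120 d and 4208 ± 585 (SD, n = 3) at 150 d, and GYPC, a membrane glycophorin, had 2798 ± 308 (SD, n = 3) and 2385 ± 537 (SD, n = 3). Both are also made outside red cells.

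Iron genes gave 0 calls by limma among 12 tested of 21 listed between 120 d and 150 d, with 5 at an unadjusted p under 0.05 (4 higher and 1 lower) and 4 by the moderated F-statistic. FTH1, the heavy chain of the iron store ferritin, read 17975 ± 2468 (SD, n = 3) at 120 d and 28309 ± 4112 (SD, n = 3) at 150 d without passing (log2 difference 0.65, adjusted p = 0.048), and PCBP1, an iron chaperone, gave 0.46 (adjusted p = 0.073). The 5 tested regulators of ALAS1 of 10 listed gave 0 calls by limma, 0 at an unadjusted p under 0.05 and 0 by the moderated F-statistic in that interval. Among them PPARGC1A, a coactivator of mitochondrial genes, gave -0.25 and NFE2L2, a stress-responsive factor, gave -0.01.

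Among 7 tested of 18 listed genes of heme breakdown, binding and export, 1 fell between 120 d and 150 d, against 6.53% of all named genes. This was PGRMC1, a heme-binding membrane protein, with a log2 fold change of -0.94 (adjusted p = 0.0093). The call was lost in 12 of the 15 fits without 1 array (adjusted p up to 0.043) and under both other scalings, and it held without 100 d replicate 1 and without 230 d replicate 2 or 3. ABCG2, an exporter of porphyrins, gave -1.16 (adjusted p = 0.011), and BLVRA, a biliverdin reductase, gave 0.06.

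Over the 8 lists together, 67 of the 82 genes on the array were tested, and 11 passed between 120 d and 150 d, 8 higher and 3 lower, against 13.3% of all named genes, 6.73% higher and 6.53% lower. Counted as a share of 67, the 11 calls were not far from that background. The split of 8 and 3 became 10 and 1 once array medians were made equal, 9 and 1 after quantile normalization, and the median log2 difference over all kept probe sets was -0.15 as deposited, 0.03 with equal medians and -0.01 after quantile normalization. Leaving out 120 d replicate 1 or 120 d replicate 3 left 7 calls.

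In the other intervals few genes of these lists passed. Between 80 d and 100 d 0 passed by limma, with 6 at an unadjusted p under 0.05 and 5 by the moderated F-statistic, and 0.172% of all named genes passed (0.132% higher, 0.0397% lower). Between 100 d and 120 d 0 passed, with 7 at an unadjusted p under 0.05 and 7 by the moderated F-statistic, and 0.0530% of all named genes passed (0.0265% higher, 0.0265% lower). Between 150 d and 230 d 2 passed, against 2.30% of all (0.887% higher, 1.42% lower). One was STAT5B, a transcription factor downstream of cytokine receptors, with 355 ± 114 (SD, n = 3) at 150 d, which rose to 853 ± 142 (SD, n = 3), by 1.31 on the log2 scale (adjusted p = 0.0081). Its call was lost in 14 of the 15 fits without 1 array (adjusted p up to 0.029) and held without 150 d replicate 3. The other was HEBP2, a heme-binding protein, with 661 ± 191 (SD, n = 3) at 150 d, which fell to 151 ± 17.3 (SD, n = 3), by 2.09 on the log2 scale (adjusted p = 0.0044), a call lost without 150 d replicate 1 or 3 and without any of the 3 arrays at 230 d (adjusted p up to 0.016).

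Markers of red cells other than the genes described were low at all stages. Of 7 such markers 5 were on the array, and their summed signal was 140 to 300 at 80 d, 132 to 265 at 120 d, 143 to 303 at 150 d and 178 to 309 at 230 d, ranges that overlapped. Among the defining markers, SLC4A1, the anion exchanger of the red cell membrane, lay between 1.8 and 19.5, and EPB42, which binds to it, between 4.4 and 51.9 on the 15 arrays. RHAG, a red cell membrane channel, lay between 27.6 and 115.1. At each stage 2 or 3 of the 5 markers were under 50 on all 3 arrays, fetal stages included, so these probe sets could hardly show a decline and say little on the red cells in the samples.

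Markers of other cell types moved with the stages. The summed signal of 15 endothelial markers was 8488 ± 570 (SD, n = 3) at 120 d and 4153 ± 1132 (SD, n = 3) at 150 d, in the interval in which both bright HBB probe sets and ALAS2 declined. There 4 of the 15 fell and 0 rose, against 6.53% lower and 6.73% higher of all named genes. These were PECAM1 and CDH5, both adhesion proteins between endothelial cells, and the receptors TIE1 and TEK, with TIE1 at a log2 fold change of -1.76 (adjusted p = 0.00043). The calls of PECAM1 and CDH5 were each lost without 1 array (120 d replicate 3 and 120 d replicate 2), and that of TEK was lost in 8 of the 15 such fits. Those of TIE1 and of the second PECAM1 probe set held in all 15. At an unadjusted p under 0.05, 11 of the endothelial markers were lower and 0 higher, and 5 were called by the moderated F-statistic. Their median log2 difference was -0.83, against -0.08 over all named genes. At 80 d, where both bright HBB probe sets were highest, the endothelial sum was 5386 ± 314 (SD, n = 3), below that at 120 d.

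The markers of white cells and platelets summed to 1858 ± 115 (SD, n = 3) at 120 d and 1404 ± 234 (SD, n = 3) at 150 d, and CD34, shared by progenitor and endothelial cells, and CD3D, of T cells, were called lower (2 of 19 tested, against 6.53% of all named genes). The call of CD34 was lost in 4 of the 15 fits without 1 array. That of CD3D, whose fetal signals were 58 at most, was lost in 7 of the 15, under both other scalings and without the filter. Skeletal muscle markers summed to 145648 ± 16296 (SD, n = 3) at 120 d and 245399 ± 54063 (SD, n = 3) at 150 d, where ALAS1 peaked, and to 324967 ± 58136 (SD, n = 3) at 230 d, where ALAS1 was lower again. Of these 12 markers 1 was called higher between 120 d and 150 d, PYGM, the glycogen phosphorylase of muscle (log2 fold change 1.84, adjusted p = 0.00025), against 6.73% of all named genes. At an unadjusted p under 0.05, 8 of the 12 were higher and 0 lower, and 8 were called by the moderated F-statistic. The part of the vessel, blood cell and fibre markers in the changes of HBB, ALAS2 and ALAS1 was not tested.

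**Figure D4:**
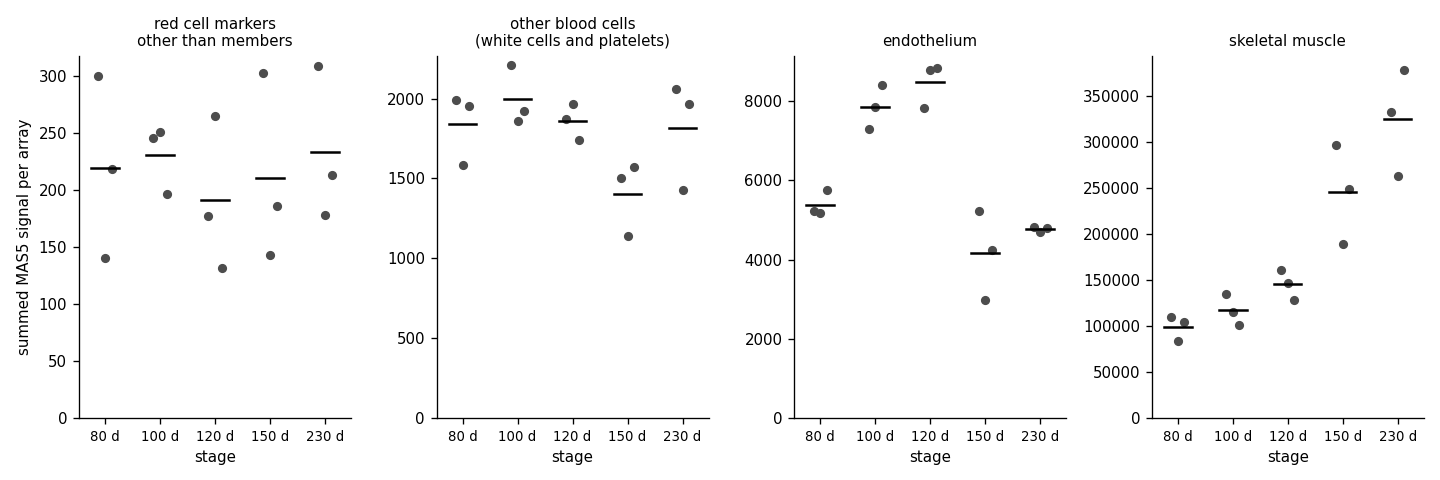
Summed MAS5 signal per array by stage for 4 marker lists, red cells other than HBB and ALAS2, white cells and platelets, endothelium and skeletal muscle; points are arrays and bars are the means of the 3 arrays of a stage. Red cell sums overlap at all stages, endothelial sums are highest at 120 d and lower at 150 d, and muscle sums are highest at 230 d.

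Whether HBB and ALAS varied together between animals of the same stage was asked with the deviations of log2 signals from the stage mean. These come from the arrays by whose stage levels the genes were chosen, so the p-values are given as a description. For 5 pairs over the 15 arrays, arrays were permuted within stages in all 7776 arrangements (two-sided exact permutation test), and the 5 p-values were adjusted by Benjamini-Hochberg. HBB A1_x_at and ALAS2 gave r = 0.46 (exact p = 0.055, adjusted p = 0.28) and rho = 0.63 (exact p = 0.030, adjusted p = 0.15). Without the 2 arrays farthest from the median of the HBB deviations, 230 d replicates 1 and 2, r was 0.69 (exact p = 0.049, not adjusted).

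The pair of HBB S1_at and ALAS2 gave r = 0.35 and rho = 0.50 (exact p = 0.11 and 0.098, adjusted p = 0.28 and 0.18), and r = 0.48 without the 2 farthest arrays (exact p = 0.076, not adjusted). HBB A1_a_at and ALAS2 gave r = 0.19 and rho = 0.46 (exact p = 0.43 and 0.14, adjusted p = 0.54 and 0.18), with r = 0.37 without the 2 farthest arrays (exact p = 0.012, not adjusted). HBB A1_at, under 50 throughout, gave r = 0.32 and rho = 0.42 (exact p = 0.20 and 0.15, adjusted p = 0.33 and 0.18), with r = 0.19 without its 2 farthest arrays (exact p = 0.65, not adjusted). ALAS2 and ALAS1 gave r = 0.10 and rho = 0.07 (exact p = 0.71 and 0.83, adjusted p = 0.71 and 0.83), with r = -0.17 without the 2 farthest (exact p = 0.62, not adjusted). No pair passed after the adjustment, and many of the postnatal deviations come from signals under 50. ALAS2 reached 50 on 0 of the 6 postnatal arrays and HBB A1_a_at on 1, so both were kept through their fetal signals.

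In single animals, 80 d replicate 1 had the highest signal of the 15 arrays for both bright HBB probe sets and for ALAS2, and the highest of the 3 at 80 d for ALAS1. At that stage 9 of the 11 globin and AHSP probe sets were highest on replicate 1, as were 38.6% of all kept probe sets. The 11 are not separate observations, as 4 are HBB and 3 are HBG probe sets, some with shared source sequences. At 150 d 9 of the 11 were again highest on replicate 1 (40.9% of all kept probe sets), including the representative HBG probe set with 684.5 and HBA with 176.5, and ALAS1 was highest there too. Replicates with the same number are different animals at each stage. The arrays of a stage had the same order for ALAS2 as for each of the bright HBB probe sets at 2 of the 3 fetal stages, 80 d and 100 d. For HBB S1_at and for HBB A1_at this held at 1 of the 3. The same count was not taken over all kept probe sets, so it stands as a description only.

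The named genes closest in course to each probe set were found among 7550 by the root mean square difference of log2 signals over the 15 arrays, each probe set centred on its mean, a description that carries no test since all arrays share the same 5 stages. For HBB A1_x_at, whose own log2 signal varied by 3.60 on this measure, they were MYL4, the embryonic myosin light chain (1.13), MYH8, the perinatal myosin heavy chain (1.38), MDK, the growth factor midkine (1.41), MEG3, a noncoding RNA (1.43), and MYH3, the embryonic myosin heavy chain (1.69). MYL4 had mean signals of 14424, 10866 and 7559 at the 3 fetal stages and 105 and 51.6 at the 2 postnatal stages. For HBB A1_a_at the same first 4 genes came in the same order, at 1.38 to 2.73, followed by CRABP1 (2.87), a retinoic acid binding protein, where its own variation was 4.90.

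For HBB S1_at the closest were TRIM47 (0.69), FUT4 (0.80), FGFRL1, PARM1 and RPS6KL1, none of which was among the closest of the other HBB probe sets. For ALAS2 they were LOC508098 (0.93), VCAN, the matrix proteoglycan versican (0.99), TMEFF1, MARCKSL1 and PRXL2B, against an own variation of 2.24. ALAS2 and the 3 kept HBB probe sets differed from each other by 1.76 (A1_x_at), 2.04 (S1_at) and 2.97 (A1_a_at), so on this measure none of them was as close to ALAS2 as these 5 genes. The measure takes in the size of a change as well as its course. From 120 d to 150 d the log2 difference was -3.94 for ALAS2, which lay under 50 after birth, -5.71 for A1_x_at and -8.64 for A1_a_at.

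The closest genes to ALAS1 lay at smaller differences, but its own variation was smaller too and the measure is not scaled by it. They were GLUD1, the mitochondrial glutamate dehydrogenase (0.22), COQ5, a methyltransferase of coenzyme Q synthesis (0.24), USP2, a deubiquitinating enzyme (0.29), NDUFA6, a subunit of respiratory complex I (0.31), and MRPS31, of the mitochondrial ribosome (0.34), against an own variation of 0.90 for ALAS1. GLUD1 had mean signals of 381, 516, 519, 1997 and 884 in the order of the stages, where ALAS1 had 450, 502, 528, 2272 and 883. ALAS1 and ALAS2 differed by 2.97 on the same measure.

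**Figure D5:**
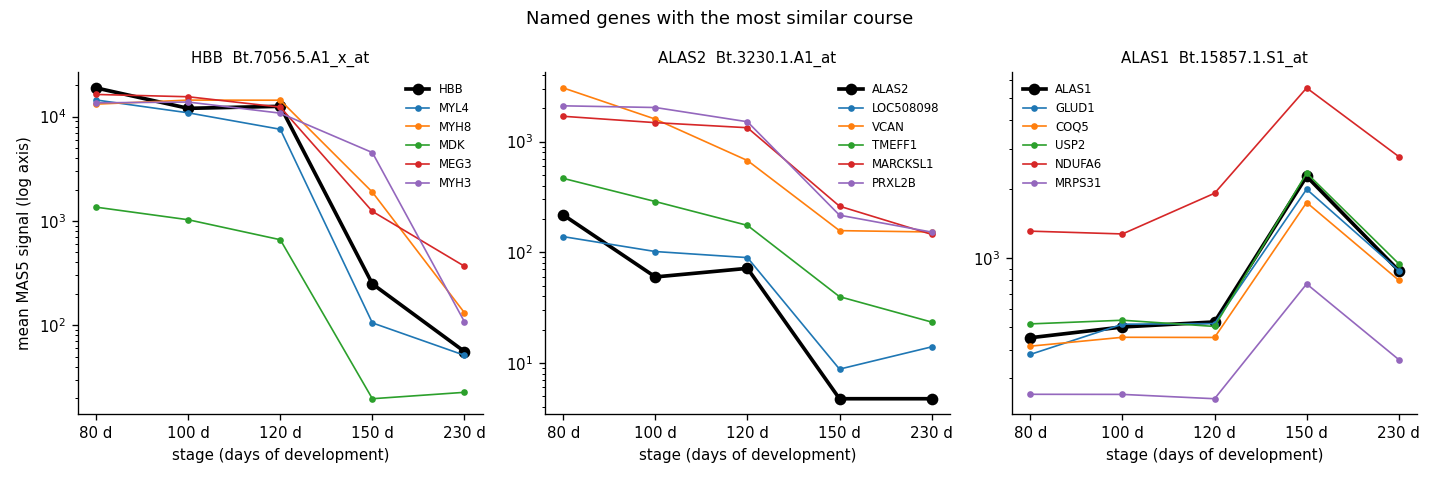
Mean MAS5 signal (log axis) by stage (stages evenly spaced) for HBB A1_x_at, ALAS2 and ALAS1 (thick black lines) and for the 5 named genes closest to each in course (thin lines); points are means of 3 arrays. Courses and not heights are to be compared, and the genes around HBB and ALAS2 drop between 120 d and 150 d while those around ALAS1 peak at 150 d.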

How the data were processed

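Arrays were grouped by the stage in their labels, and the replicate numbers come from the labels too. The authors deposited MAS5 signal intensities, which are linear values: background was corrected in regions of each array, perfect match and mismatch probes were combined by a one-step Tukey biweight, and arrays were scaled to a mean of 200. The MAS5 version is one detail not given in the sources used here. From these, 112 control probe sets were removed, 15998 of 24016 probe sets (66.6%) were kept for reaching 50 on 3 or more arrays, signals under 0.1 were set to 0.1 (2 values) and log2 was taken. Gene names were taken from probe sets carrying a single symbol in the platform annotation (13292 of 24016, 86 having several and 10638 none), and a gene with several kept probe sets (1917 of 7553) was represented by its brightest probe set (mean log2 signal).

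Adjacent stages were compared with limma 3.58.1 (lmFit and eBayes) in R 4.3.3 on all 15 arrays, adjusted over all kept probe sets of an interval at 0.01. The fit was also run on simulated data with independent arrays, whose outcome is not given here and carries no weight for these results. Where the geometric mean of 1 stage lay under 50, its arrays under 50 were set to 50 for the fold. Exact permutation tests and figures used Python 3.11.15, scipy 1.17.1 and matplotlib 3.10.9. HBB, ALAS1 and ALAS2, the gene lists and the tests were chosen with earlier results of these data known. Named genes were all globins and heme synthesis genes measured, up to 6 called genes per list with the largest change, and up to 2 uncalled genes per list with the highest signal; the single arrays, EPO, EPOR, SLC4A1, EPB42, RHAG and ABCG2 or others beyond that rule were named after their values were seen. With 3 arrays per stage, their number limits the precision. The alternatives were 2 other scalings, an offset of 16 before log2, no filter or a minimum of 100, the moderated F-statistic, the 6 arrays of an interval alone, the replicate number as a block, other limma options, any probe set of a gene, leaving out each array, and leaving out the 80 d arrays.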

Additional observations from a re-analysis of the deposited data

How the results depend on the processing

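The counts of called list genes moved with the test and with the arrays in the fit. The moderated F-statistic with a nested decision called 5, 7, 19 and 8 list genes in the 4 intervals in order of age, against 0, 0, 11 and 2. With the 6 arrays of an interval alone 0 were called from 120 d to 150 d and 0 in the following interval. Leaving out each array in turn gave 7 to 13 calls from 120 d to 150 d and 0 to 2 in the next interval, with 0 without 150 d replicate 1 and without 230 d replicate 2 or 3. Between 150 d and 230 d the count was 0 without the filter, 4 with a trend and robust eBayes and 0 without the 80 d arrays, the last chosen after seeing the data because of their actin ratio, and it left 8 calls between 120 d and 150 d. The animals differ between stages, and the labels give the replicate numbers no further meaning. Deviations of arrays with the same number had a mean correlation of 0.045 over 30 pairs of arrays, with 6 over 0.1, 5 of them among arrays numbered 1, against -0.023 over 60 pairs with different numbers, with 3 over 0.1. For 9 of the 15 arrays the closest array of another stage had the same number, a hint from the data only. With the replicate number as a block the count was 11 between 120 d and 150 d, 10 of them shared and HBG the call lost, and 1 between 150 d and 230 d, with STAT5B lost. For single probe sets, quantile normalization moved the log2 differences between 100 d and 120 d of HBB A1_a_at to -0.26 and of HBB A1_x_at to -0.14, and an offset of 16 moved that of ALAS2 between 120 d and 150 d to -2.05. With 1 array left out, r of ALAS2 with ALAS1 ranged from -0.15 (without 80 d replicate 1) to 0.31, and r of HBB A1_a_at with ALAS2 from -0.0015 (without 230 d replicate 2) to 0.48 (without 150 d replicate 2, exact adjusted p = 0.012). For all of these the cause was not tested. Over the alternatives run, the log2 difference from 120 d to 150 d ranged from -9.44 to -7.83 for HBB A1_a_at. For HBB A1_x_at it ranged from -5.98 to -5.52, for ALAS2 from -4.09 to -2.05 and for ALAS1 from 1.77 to 2.42. The arrays of these probe sets did not overlap between 120 d and 150 d. Leaving out an array, the offset or the block therefore could not turn their direction, and only the other scalings could have. The log2 difference of HBB S1_at, whose arrays overlapped, ranged from -0.49 to 0.29. Signals under 50 and the bovine probes limit what can be said of ALAS2 and of HBB after birth.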
